A study of Mus musculus with 8 samples.

Results

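The growth hormone and STAT5 axis was followed in mouse liver through 10 genes. They were the receptor gene Ghr, the transducer Stat5b, the feedback inhibitors Socs2 and Cish, the regulators Bcl6, Onecut1 and Cux2, and the outputs Igf1, Igfals and Susd4. Every gene probe that the array files name with 1 of these symbols was taken, which gave 21 of 41174 probes and 10 of 27396 genes. All 10 were among the 17354 genes tested, and 20 of the 21 probes passed a filter that asked for signal well above background in both replicates of 1 group or more. Cux2 passed it only through the vitamin A deficient group.

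RNA from the liver of wild-type C57Bl/6J males, which belong to an inbred strain, was measured at 14 weeks of age and after a 4 h fast on 8 single-colour Agilent arrays, 2 for each diet group. BD_HF mice had dams on a standard breeder diet throughout and after weaning ate a high fat diet in which fat gave 60% of the energy. LF_HF mice ate the same high fat diet after weaning, but their dams had been moved at embryonic day 10.5 from the breeder diet to a defined, vitamin A sufficient low fat diet in which fat gave 12% of the energy. VAD_VAD mice had a defined 12% fat, vitamin A deficient diet in both periods, from embryonic day 10.5, and LF_LF mice had the 12% fat, vitamin A sufficient diet in both. Whether each sample is a separate animal is not in the labels, and p-values therefore cover only the spread among these samples, which may be technical. Whole liver was used, so fewer cells of a type and less RNA per cell cannot be told apart.

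Growth hormone from the pituitary binds its receptor on hepatocytes and activates the kinase JAK2, which phosphorylates STAT5B. STAT5B then enters the nucleus and drives Igf1 and Igfals, whose proteins circulate together, and the inhibitors Socs2 and Cish, which damp the same receptor. In mice the hormone reaches the liver in pulses in males and almost continuously in females, and this pattern sets a large programme of sex-biased liver genes, in which BCL6 and CUX2 act as repressors, the first more abundant in males and the second in females, and ONECUT1 works beside STAT5B.

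Levels are given as log2 signal minus the 75th percentile of the array, so that 0 is the level of that percentile and 1 unit is a doubling. Differences are between group means on this log2 scale, with the standard error (SE), from limma on all 8 arrays with Benjamini-Hochberg adjustment over all genes tested. A gene is called at an adjusted p under 0.05. The study's design gives 3 comparisons, BD_HF against LF_HF (the maternal diet, on a high fat diet), LF_HF against LF_LF (the diet after weaning) and VAD_VAD against LF_LF (vitamin A). BD_HF against LF_LF was added, in which both diets differ. The last 3 share the LF_LF arrays. The 75th percentile signal was 195 to 296 on 7 arrays and 496 on LF_HF replicate 1. That array stood apart: 82.2% of its probes were well above background against 56.5% to 64.2% elsewhere, 2707 of its spots were outliers against 46 to 316, and 952 of the tested genes had no value on it. Over genes, the replicate difference had an SD of 1.47 in LF_HF, while that of BD_HF was 0.555, that of VAD_VAD 0.711 and that of LF_LF 0.408. The 10 genes showed the same gap: their median absolute difference between replicates was 1.46 in LF_HF and 0.21 to 0.43 elsewhere, and 9 of the 10 were lower on LF_HF replicate 1 than on replicate 2. Results are therefore also given without LF_HF replicate 1. With either LF_HF array left out, that group is a single array assumed to vary like the other groups, so its differences have no replicate check of their own. The median gene of all tested differed by 0.17 in BD_HF minus LF_HF, −0.02 in LF_HF minus LF_LF, 0.09 in VAD_VAD minus LF_LF and 0.11 in BD_HF minus LF_LF.

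STAT5 dimers bind the element TTCNNNGAA, a palindrome read the same on both strands. RefSeq windows of 300 bases, from 250 before to 50 after a start site (GRCm38.p6), were found for 9 of the 10 genes, 16 windows in all, and the element was in 5 of them, which belonged to Cish, Bcl6 and Igfals. Of all 32851 windows, 2726 (8.3%) held it, and 150 (0.457%) held 2 or more. The stretches that hold it are shown so that they can be set beside the values of these 3 genes, with the element in capitals and each written 5′ to 3′ along the gene's strand.
Cish, chr9:107296644-107296678, plus strand: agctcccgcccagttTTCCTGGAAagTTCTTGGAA
Bcl6, chr16:23981348-23981466, minus strand: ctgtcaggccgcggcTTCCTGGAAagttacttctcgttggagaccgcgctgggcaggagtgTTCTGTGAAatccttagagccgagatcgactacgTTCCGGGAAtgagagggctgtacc
Bcl6, chr16:23988947-23988985, minus strand: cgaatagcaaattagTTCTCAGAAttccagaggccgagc
Igfals, chr17:24877594-24877631, plus strand: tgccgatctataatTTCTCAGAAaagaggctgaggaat
Igfals, chr17:24878158-24878196, plus strand: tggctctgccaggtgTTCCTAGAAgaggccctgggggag
In Cish the 2 elements lay at 1 to 9 and at 12 to 20, counting the first transcribed base as 1 and the base before it as −1. In the first Bcl6 window the 3 elements began at −168, −122 and −88, and in the second the 1 element began at −118. The 2 Igfals elements lay in windows of different start sites and began at −236 and −58. The windows of Ghr, Stat5b, Igf1, Onecut1, Cux2 and Susd4 held no match to these letters, which says nothing of sites elsewhere. A match is a description and no binding was measured.

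The largest difference among the 10 genes was in Susd4. It rose in BD_HF, LF_HF and VAD_VAD relative to LF_LF, and no other gene of the 10 was called in any comparison. Ghr and Igfals had the same order of group means, highest in BD_HF, then LF_HF, VAD_VAD and LF_LF, and Igf1 differed least of all, by 0.36 between its highest and lowest group means. Socs2 and Onecut1 shared another order, LF_HF, LF_LF, BD_HF and VAD_VAD. Across the 4 groups, the moderated F test called Susd4 (adjusted p = 0.0106) and none of the other 9, with adjusted p between 0.235 for Igfals and 0.897 for Igf1. This test called 0.864% of all genes.

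**Figure D1:**
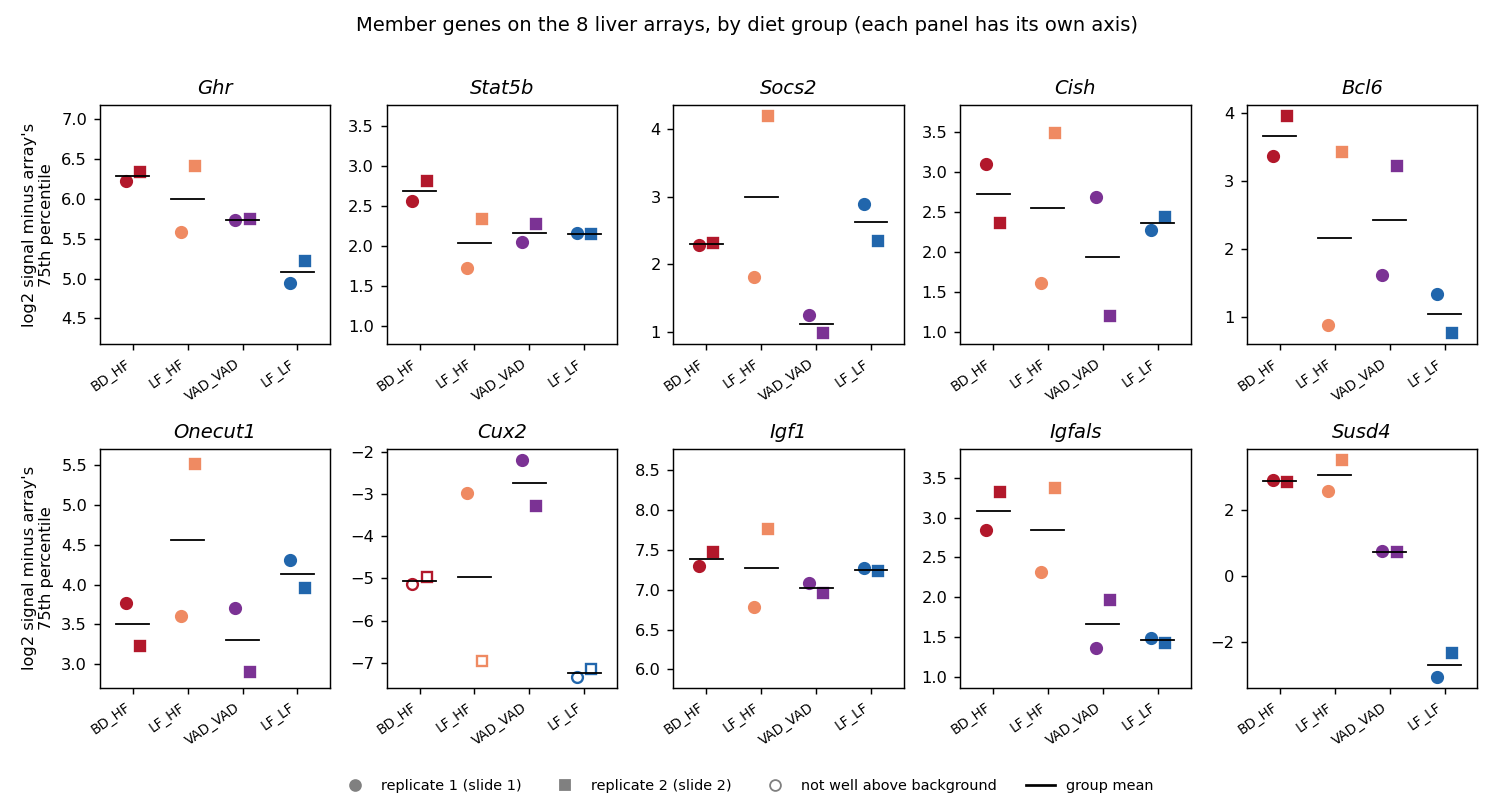
Level of the 10 genes on each of the 8 arrays (log2 signal minus the array's 75th percentile, vertical axis; a separate axis range in each panel) in BD_HF, LF_HF, VAD_VAD and LF_LF. Circles are replicate 1 and squares replicate 2, open symbols were not well above background, and bars are group means. Susd4 is between 2.58 and 3.53 on the 4 high fat arrays, at 0.75 and 0.71 in VAD_VAD and at −3.07 and −2.34 in LF_LF.

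Ghr encodes the growth hormone receptor, and by alternative splicing also the circulating hormone-binding protein. Its level was 6.23 and 6.34 in BD_HF livers, 5.58 and 6.41 in LF_HF livers, 5.73 and 5.75 in VAD_VAD, and 4.94 and 5.22 in LF_LF. Every array of the other 3 groups was above both LF_LF arrays, and the 3 other groups overlapped in part. The difference was 1.20 in BD_HF minus LF_LF (SE 0.363, adjusted p = 0.206), 0.91 in LF_HF minus LF_LF (SE 0.363, adjusted p = 0.270) and 0.66 in VAD_VAD minus LF_LF (SE 0.363, adjusted p = 0.614), and none passed. BD_HF and LF_HF overlapped, at a difference of 0.29. BD_HF minus LF_LF passed with either LF_HF array left out, although LF_HF enters it only through the shared estimate of the spread. With LF_HF replicate 1 left out the first 2 passed, at 1.20 (adjusted p = 0.0236) and, with 1 LF_HF array, 1.33 (adjusted p = 0.0275), in a fit that called 9.09% and 11% of all genes in those comparisons, and the vitamin A comparison did not (adjusted p = 0.150).

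Ghr had 5 probes on chromosome 15, and they did not all behave alike. The probe used in the fit, with the highest mean signal, lay at 3277988 to 3278047 (mm9, minus strand) and is assigned to transcript variant 2. The levels and differences in the paragraph above are therefore those of a variant 2 probe. Which variant gives the receptor and which the binding protein was not examined. A second probe of variant 2, at 3283509 to 3290961, spans a splice junction, and the variant 1 probe lies at 3268107 to 3268166. Those 3 gave 1.20, 1.44 and 1.14 in BD_HF minus LF_LF, in that order. In VAD_VAD minus LF_LF they gave 0.66, 0.75 and 0.17. The remaining probes are assigned to an Ensembl transcript, at 3295320 to 3295379, and to a cDNA clone, at 3275624 to 3275683, and both gave −1.16 in VAD_VAD minus LF_LF (SE 0.516 and 0.594). The Ensembl-assigned probe read −0.60 and 0.53 in VAD_VAD against 1.58 and 0.67 in LF_LF, so its 2 groups did not overlap, in the direction opposite to that of the fitted probe. None of the 5 probes passed in any comparison when all 26224 kept probes were tested, with adjusted p between 0.159 and 0.962 over the 4 comparisons. The direction of Ghr in VAD_VAD therefore depended on the probe, and the mean of its 5 probes differed by −0.15.

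**Figure D2:**
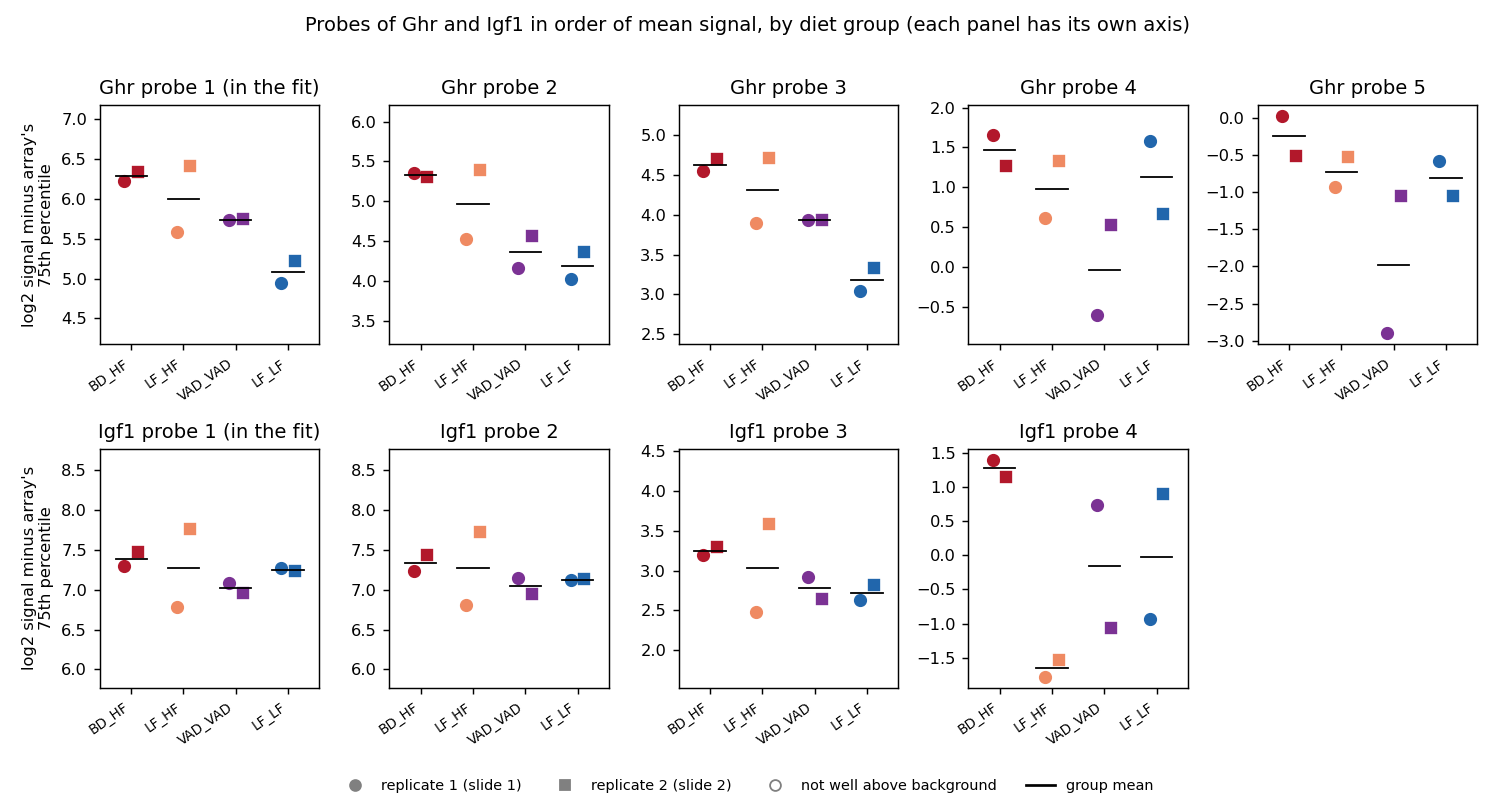
The 5 probes of Ghr (top) and the 4 of Igf1 (bottom), ordered by mean signal, on each array (log2 signal minus the array's 75th percentile, vertical axis; a separate range in each panel). Circles are replicate 1, squares replicate 2, and bars are group means. Ghr probes 1 to 3 are lowest in LF_LF and probes 4 and 5 are lowest in VAD_VAD, while Igf1 probes 1 to 3 are nearly level and probe 4 is highest in BD_HF.

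Stat5b encodes the transcription factor that carries the signal from the receptor to the nucleus. It was at 2.56 and 2.81 in BD_HF livers, 1.72 and 2.34 in LF_HF livers, 2.05 and 2.27 in VAD_VAD, and 2.16 and 2.15 in LF_LF. Both BD_HF arrays were above the 6 others, and those 6 overlapped. Its difference was 0.65 in BD_HF minus LF_HF (SE 0.337, adjusted p = 0.786) and 0.53 in BD_HF minus LF_LF (SE 0.337, adjusted p = 0.603), and LF_HF and VAD_VAD lay within 0.12 of LF_LF. A dimmer probe, assigned to a thymus cDNA clone in the same gene (chromosome 11, 100682720 to 100682779), read −1.82 and −3.04 in LF_HF and −4.90 and −4.44 in LF_LF. That probe differed by 2.24 in LF_HF minus LF_LF (SE 0.460, adjusted p = 0.0722 over all probes) and did not pass. The fitted probe, at 100642099 to 100642158, and the third, which spans a splice junction, gave −0.12 and 0.43 in this comparison.

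Socs2 is a STAT5 target whose protein tags the growth hormone receptor for degradation, and mice without it overgrow. Its level was 2.28 and 2.32 in BD_HF livers, 1.81 and 4.19 in LF_HF livers, 1.25 and 0.98 in VAD_VAD, and 2.89 and 2.35 in LF_LF. Both VAD_VAD arrays were the lowest of the 8, and the LF_HF replicates differed by more than any pair of groups. The difference was −1.51 in VAD_VAD minus LF_LF (SE 0.697, adjusted p = 0.531), −1.64 on slide 1 and −1.37 on slide 2, and it did not pass. On leaving out LF_HF replicate 1, which is in neither group and enters only through the shared estimate of the spread, the same difference passed (adjusted p = 0.0275) in a fit that called 5.29% of all genes. The LF_HF minus LF_LF difference turned on the array used, with 0.38 on both (adjusted p = 0.835), 1.57 with replicate 2 alone (adjusted p = 0.0288, its spread taken from the other groups) and −0.81 with replicate 1 alone. A dimmer second probe, assigned to an Ensembl transcript, gave −0.74 in VAD_VAD minus LF_LF (SE 0.488).

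Cish encodes another STAT5-induced inhibitor, and its promoter window holds the 2 elements shown above. It was at 3.1 and 2.36 in BD_HF livers, 1.61 and 3.49 in LF_HF livers, 2.69 and 1.19 in VAD_VAD, and 2.28 and 2.44 in LF_LF. The LF_HF and the VAD_VAD replicates lay further apart than the highest and lowest group means, which spanned 0.79, and all 4 groups overlapped with their neighbours in that order. No comparison passed, with differences from −0.42 in VAD_VAD minus LF_LF to 0.37 in BD_HF minus LF_LF and SE of 0.712.

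Bcl6 encodes a repressor that competes with STAT5 at shared sites in male mouse liver and is lowered by continuous growth hormone, and its windows held 4 elements. It read 3.37 and 3.95 in BD_HF livers, 0.88 and 3.43 in LF_HF livers, 1.62 and 3.22 in VAD_VAD, and 1.34 and 0.76 in LF_LF. Both BD_HF arrays and both VAD_VAD arrays were above LF_LF, while LF_HF had 1 array near LF_LF and 1 near BD_HF. The difference was 2.61 in BD_HF minus LF_LF (SE 0.860, adjusted p = 0.248), 1.5 in BD_HF minus LF_HF (SE 0.860, adjusted p = 0.786) and 1.37 in VAD_VAD minus LF_LF (SE 0.860, adjusted p = 0.669), and none passed. Without LF_HF replicate 1, BD_HF minus LF_LF passed at the same difference (adjusted p = 0.0360), and BD_HF minus LF_HF was 0.22. The share of all genes called in that fit is given with Ghr. Without LF_HF replicate 2, BD_HF minus LF_LF also passed at the same difference. LF_HF was then the array that stood apart alone, with the spread taken from the other groups. BD_HF minus LF_HF was then 2.78 and passed (adjusted p = 0.0352), in a fit that called 18.9% of all genes.

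Onecut1 (HNF6) is a hepatocyte factor that works with STAT5B at sex-biased genes. It was at 3.77 and 3.23 in BD_HF livers, 3.6 and 5.51 in LF_HF livers, 3.71 and 2.90 in VAD_VAD, and 4.31 and 3.96 in LF_LF. Both VAD_VAD and both BD_HF arrays were below LF_LF, and the LF_HF arrays lay on either side of it. None of the differences passed: −0.83 in VAD_VAD minus LF_LF (SE 0.629, adjusted p = 0.715), −0.63 in BD_HF minus LF_LF (adjusted p = 0.786), 0.42 in LF_HF minus LF_LF (adjusted p = 0.792) and −1.05 in BD_HF minus LF_HF (adjusted p = 0.786).

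Cux2 encodes a homeobox repressor that is abundant in female and scarce in male mouse liver. It was well above background on 2 of 2 VAD_VAD arrays, at −2.19 and −3.28, and on 1 of 2 LF_HF arrays, at −2.98 on replicate 1, the array that stood apart. It was not well above background in BD_HF, at −5.14 and −4.97, on LF_HF replicate 2, at −6.95, or in LF_LF, at −7.33 and −7.14. With LF_LF set to the lowest detectable signal of each array, VAD_VAD was at least 7.01-fold higher, where the fit gave 4.50 (SE 1.11, adjusted p = 0.191) and did not pass. The VAD_VAD difference passed when LF_HF replicate 1 was left out (adjusted p = 0.00341), and it passed under 7 of 18 alternatives, over which the difference ran from 0.82 to 5.04. The gene entered the fit because of these 2 arrays, so that a difference was built into its selection. A second probe, in another part of the gene (chromosome 5, 122345478 to 122345537), was above background on 1 of 8 arrays and was left out by the filter. The fitted probe lay at 122310447 to 122310506 on the minus strand.

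Igf1 encodes the hormone that carries much of growth hormone's effect on growth, and liver is the main source of the circulating form. Its level was 7.30 and 7.47 in BD_HF livers, 6.78 and 7.76 in LF_HF livers, 7.09 and 6.96 in VAD_VAD, and 7.27 and 7.23 in LF_LF. The LF_HF arrays were the lowest and the highest of the 8. Differences were 0.12 in BD_HF minus LF_HF (adjusted p = 0.898), 0.02 in LF_HF minus LF_LF (0.986), −0.23 in VAD_VAD minus LF_LF (0.863) and 0.14 in BD_HF minus LF_LF (0.937), each with an SE of 0.384. These p-values do not show that the groups had equal Igf1.

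The fitted Igf1 probe (chromosome 10, 87393516 to 87393575, plus strand) was printed 10 times on each array, which gives its error within an array. After outlier spots were left out, 8 to 10 spots per array remained, and their SD was between 0.0300 and 0.0516. On LF_HF replicate 1 the spots ran from 6.71 to 6.87, and on LF_HF replicate 2 from 7.67 to 7.82. The gap between the 2 LF_HF arrays was thus far wider than the spread of repeated spots on either. It was a gap in scaled values. Before scaling, the probe's signal was higher on LF_HF replicate 1 (54600) than on replicate 2 (42300). The order turned when each array's 75th percentile, a signal of 496 and 195, was subtracted. A variant 2 probe (87376418 to 87376477) and another variant 1 probe (87396567 to 87396626) differed by −0.07 and 0.06 in VAD_VAD minus LF_LF. The last probe, assigned to a liver tumour cDNA clone (87325382 to 87325441), read 1.40 and 1.14 in BD_HF against −1.78 and −1.53 in LF_HF. That difference of 2.92 (SE 0.734, adjusted p = 0.764 over all probes) did not pass, and the probe read 0.74 and −1.07 in VAD_VAD and −0.94 and 0.89 in LF_LF.

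Igfals encodes the acid-labile subunit, which holds IGF1 in its circulating complex with IGFBP3. It was at 2.84 and 3.32 in BD_HF livers, 2.32 and 3.37 in LF_HF livers, 1.36 and 1.96 in VAD_VAD, and 1.49 and 1.43 in LF_LF. All 4 high fat arrays were above all 4 low fat arrays. The difference was 1.62 in BD_HF minus LF_LF (SE 0.440, adjusted p = 0.161, 1.36 on slide 1 and 1.89 on slide 2) and 1.39 in LF_HF minus LF_LF (SE 0.440, adjusted p = 0.177, 0.83 and 1.94). Neither passed, and VAD_VAD minus LF_LF was 0.21 (adjusted p = 0.894). Without LF_HF replicate 1 both high fat comparisons passed, at 1.62 (adjusted p = 0.0235) and, with 1 LF_HF array, 1.91 (adjusted p = 0.0225). The shares of all genes called in that fit are given with Ghr. BD_HF minus LF_LF of Igfals also passed without LF_HF replicate 2. Leaving out either LF_HF array removes the same LF_HF replicate spread from the shared estimate and leaves the BD_HF and LF_LF values as they were. The second pass is therefore no separate check on the array that stood apart. The probe lay on chromosome 17, at 25018251 to 25018310 (mm9, plus strand).

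Susd4 encodes a membrane protein that inhibits complement. Its level was 2.90 and 2.85 in BD_HF livers, 2.58 and 3.53 in LF_HF livers, 0.75 and 0.71 in VAD_VAD, and −3.07 and −2.34 in LF_LF. The groups formed 3 separate steps, with BD_HF and LF_HF overlapping at the top, and all 8 arrays were well above background. In means it was 2.87 ± 0.0352 in BD_HF, 3.05 ± 0.675 in LF_HF, 0.73 ± 0.0252 in VAD_VAD and −2.70 ± 0.517 in LF_LF (SD, n = 2 each). Susd4 rose by 5.58 in BD_HF minus LF_LF (SE 0.422, adjusted p = 0.00608, 47.7-fold), by 5.76 in LF_HF minus LF_LF (SE 0.422, adjusted p = 0.00341, 54.0-fold) and by 3.43 in VAD_VAD minus LF_LF (SE 0.422, adjusted p = 0.0264, 10.8-fold). Of all genes, 1.51%, 2.49% and 0.57% were called in those comparisons (0.455%, 0.617% and 0.0922% higher), against 1 of the 10 here, higher in each. The maternal diet made a difference of −0.18 in BD_HF minus LF_HF (SE 0.422, adjusted p = 0.864), where 0.00576% of all genes were called in either direction. The step between the high fat groups and VAD_VAD was not tested. With slide as a block the 3 calls held (adjusted p = 0.00996, 0.00630 and 0.0316), and without LF_HF replicate 1 they held as well (0.000917, 0.00193 and 0.00356).

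The size of the Susd4 differences depended on the background correction. With normexp they were 4.45 for BD_HF, 4.54 for LF_HF and 2.42 for VAD_VAD, each minus LF_LF, and with normexp and quantile scaling 4.2, 4.57 and 2.18, all of them called. The calls on all 8 arrays did not all hold when 1 array was left out. The VAD_VAD call ended without either BD_HF array (adjusted p = 0.0947 and 0.0943), either LF_LF array (0.286 and 0.153) or either VAD_VAD array (0.206 and 0.144), at differences between 3.06 and 3.79. The BD_HF minus LF_LF call ended without either BD_HF array (0.111 and 0.103) or either LF_LF array (0.100 and 0.0813), at 5.21 to 5.94, and the LF_HF call without LF_LF replicate 1 (0.0559). The probe lay on chromosome 1, at 184825697 to 184825756 (mm9, plus strand).

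**Figure D3:**
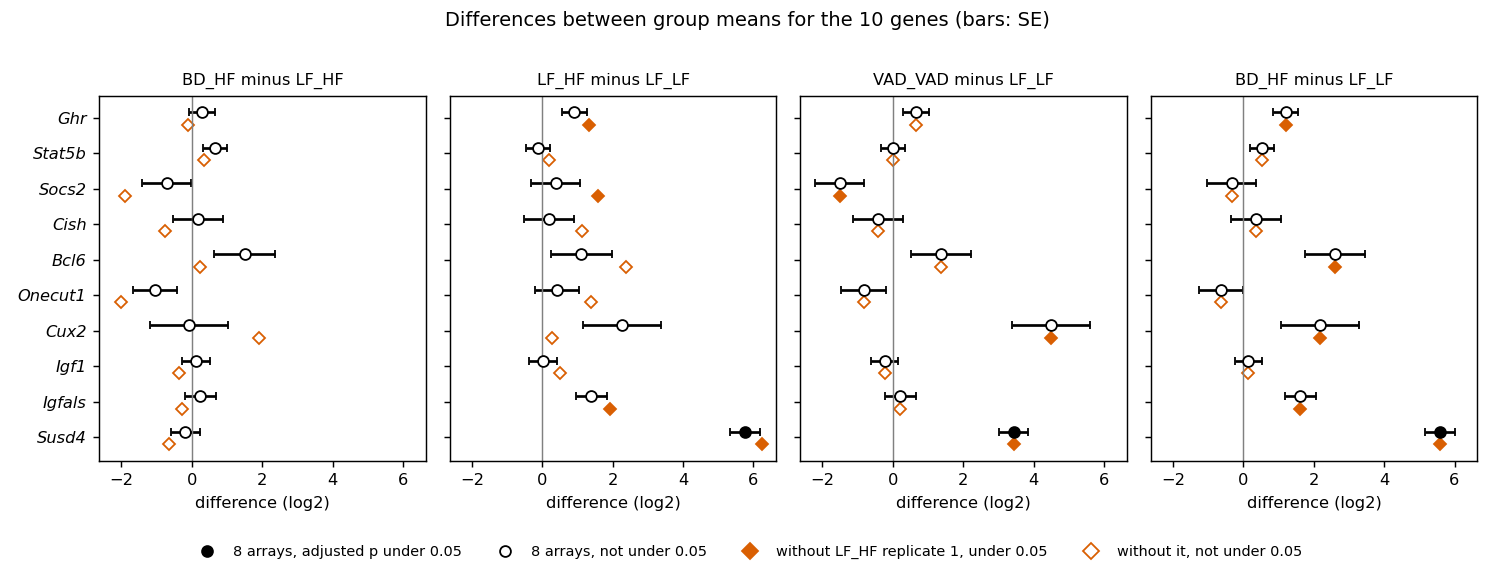
Differences between group means (log2, horizontal axis) for the 10 genes in 4 comparisons, with SE bars, on all 8 arrays (black circles) and without LF_HF replicate 1 (orange diamonds). Filled symbols had an adjusted p under 0.05. Susd4 is filled in the 3 comparisons with LF_LF in both fits, while Ghr, Igfals and Socs2 (LF_HF minus LF_LF), Socs2 and Cux2 (VAD_VAD minus LF_LF) and Ghr, Bcl6, Cux2 and Igfals (BD_HF minus LF_LF) are filled only without that array; Cux2 was not well above background in BD_HF or LF_LF, and LF_HF is then 1 array.

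Counted together, 9 of the 10 genes had a positive difference in LF_HF minus LF_LF (median 0.67), 8 in BD_HF minus LF_LF (median 0.87) and 6 in VAD_VAD minus LF_LF (median 0.11). All genes tested had medians of −0.02, 0.11 and 0.09 in these comparisons, and 48.7%, 58.5% and 56.7% of them were positive. Among the 9, Socs2, Cish, Bcl6, Igf1 and Onecut1 changed sign in LF_HF minus LF_LF when 1 of the arrays was left out. The 2 groups did not overlap, and were higher, for 4 of the 10 in LF_HF minus LF_LF, 7 in BD_HF minus LF_LF and 4 in VAD_VAD minus LF_LF, with 0, 2 and 3 lower. The 7 include Cux2, which was not well above background on any array of BD_HF or LF_LF. Its order there is of signals near background. The 4 in LF_HF minus LF_LF include it with 1 of 2 LF_HF arrays above background. The 4 in VAD_VAD minus LF_LF include it as well. There a difference was built into its selection, because it passed the filter only through VAD_VAD. Cux2 also counts among the positive differences and in the medians. Of all genes with values on all arrays compared, 20.9%, 34.2% and 32.4% were higher without overlap, and 21.3%, 25.9% and 25.5% lower. In BD_HF minus LF_HF, 1 of the 10 (Stat5b) was higher without overlap, against 17.5% of all genes, and 0 were lower, against 9.56%. No gene of the 10 was called there, and the median was 0.15. The 3 comparisons with LF_LF share its arrays, and LF_LF had the lowest mean of the 4 groups for Ghr, Bcl6, Igfals, Cux2 and Susd4.

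The kinases, phosphatases and related receptors around the growth hormone receptor did not pass in any comparison. Of 18 genes on this list 17 were measured, and the medians were between −0.22 and 0.29. The lowest adjusted p was for Prlr, the prolactin receptor and a close relative of the growth hormone receptor. Prlr read 1.5 and 1.56 in BD_HF and −0.06 and −0.59 in LF_LF, a difference of 1.86 (SE 0.367, adjusted p = 0.0648). In VAD_VAD minus LF_LF it differed by 0.98 (adjusted p = 0.408), and in BD_HF minus LF_HF by 1.15 (adjusted p = 0.786). Igf1r, the receptor for IGF1, differed by −1.27 in LF_HF minus LF_LF (SE 0.328, adjusted p = 0.109), and Socs1, another inhibitor of JAK kinases, by −1.30 (SE 0.343, adjusted p = 0.113). Socs1 differed by −0.82 in VAD_VAD minus LF_LF (adjusted p = 0.472) and by −0.73 in BD_HF minus LF_LF (adjusted p = 0.448), and the insulin receptor substrate Irs1 by 0.99 in BD_HF minus LF_HF (adjusted p = 0.786). Without LF_HF replicate 1, 1 gene of this list was called lower in LF_HF minus LF_LF, against 8.7% of all genes, and 1 higher in BD_HF minus LF_LF, against 2.81%.

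The 9 IGF carriers and partners were listed with earlier results of these data known, so their share is not independent evidence. Of them 2 fell in LF_HF minus LF_LF, where 1.87% of all genes fell, and none passed elsewhere. The call of Igfbp6, 1 of these, rests on a single LF_HF array with the spread taken from the other groups. Igfbp7, a secreted protein related to the IGF carriers, was at 4.79 and 4.21 in LF_HF and at 6.59 and 6.37 in LF_LF, a fall of 3.94-fold (difference −1.98, SE 0.347, adjusted p = 0.0360). Igfbp6, a carrier with a preference for IGF2, was not well above background in LF_HF, where replicate 1 gave no value, and read −1.66 and −1.94 in LF_LF, at least 8.40-fold lower in LF_HF (adjusted p = 0.0258). In the other comparisons Igfbp6 differed by 0.85 in VAD_VAD minus LF_LF (adjusted p = 0.512) and −0.85 in BD_HF minus LF_LF (adjusted p = 0.421). In BD_HF minus LF_HF it differed by 2.47, against 1 LF_HF array below background (adjusted p = 0.786). Igfbp7 differed by 1.08 in BD_HF minus LF_HF (adjusted p = 0.786) and by −0.90 in BD_HF minus LF_LF (adjusted p = 0.338). Igf2, the fetal growth factor, differed by −1.14 in VAD_VAD minus LF_LF (adjusted p = 0.687). The list's median was −0.59 in LF_HF minus LF_LF and −0.85 in BD_HF minus LF_LF, with 8 of 9 negative in each.

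The 12 liver transcription factors were also listed with earlier results of these data known, so their share is not independent evidence. Of them 1 rose in each high fat comparison with LF_LF, where 0.455% (BD_HF) and 0.617% (LF_HF) of all genes rose. It was Nr1i3 (CAR), a nuclear receptor for drugs and other foreign compounds, at 3.03 and 3.18 in BD_HF livers, 2.26 and 2.79 in LF_HF livers, 1.23 and 1.96 in VAD_VAD, and −0.25 and 0.05 in LF_LF. It rose by 3.20 in BD_HF minus LF_LF (SE 0.377, adjusted p = 0.0147, 9.22-fold) and by 2.63 in LF_HF minus LF_LF (SE 0.377, adjusted p = 0.0209, 6.18-fold). In VAD_VAD minus LF_LF it differed by 1.70 (adjusted p = 0.143) and did not pass, nor did Tox, a factor known from lymphocyte development, at 2.26 (adjusted p = 0.151). In BD_HF minus LF_HF the forkhead factors Foxa1 and Foxo1 had the smallest p, at −0.92 and 0.68 (adjusted p = 0.786 each). All 12 differences were positive in BD_HF minus LF_LF, with a median of 0.62, where 58.5% of all genes were positive.

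Genes known to be male-biased through growth hormone in mouse liver were listed with results of these data known, so their direction is not independent evidence. Of 25 listed, 22 were measured. In LF_HF minus LF_LF 4 rose and 0 fell (median 0.85, 21 of 22 positive), in BD_HF minus LF_LF 3 rose and 0 fell (median 0.97, 19 positive), and in VAD_VAD minus LF_LF 1 rose and 0 fell (median 0.68, 19 positive). Of all genes, 0.617%, 0.455% and 0.0922% rose in these comparisons, and 48.7%, 58.5% and 56.7% were positive. In BD_HF minus LF_HF none passed, with a median of −0.08. Without LF_HF replicate 1 the counts were 13 (with 1 LF_HF array), 10 and 4 higher and 0 lower, where 2.34%, 2.81% and 1.35% of all genes were called higher.

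Hsd3b5, a steroid dehydrogenase of male liver, read 5.47 and 5.43 in BD_HF livers, 5.46 and 6.13 in LF_HF livers, 1.13 and 4.32 in VAD_VAD, and −2.47 and −2.49 in LF_LF. It rose 244-fold in BD_HF minus LF_LF (difference 7.93, SE 0.894, adjusted p = 0.0127) and 310-fold in LF_HF minus LF_LF (8.27, SE 0.894, adjusted p = 0.00905). Hsd3b genes are near-identical, so the member that its probe reads is uncertain. Slco1a1, an uptake transporter for bile acids and steroids, was at 2.68 and 3 in BD_HF livers, 2.30 and 3.22 in LF_HF livers, 1.96 and 2.42 in VAD_VAD, and −0.43 and −0.91 in LF_LF. It rose by 3.51 (SE 0.416, adjusted p = 0.0150), 3.43 (SE 0.416, adjusted p = 0.0124) and 2.86 (SE 0.416, adjusted p = 0.0432) in those 3 groups relative to LF_LF, and with slide as a block the last did not pass (adjusted p = 0.0570). Serpina12, the secreted protease inhibitor vaspin, rose by 2.90 in BD_HF minus LF_LF (SE 0.420, adjusted p = 0.0262) and by 3.40 in LF_HF minus LF_LF (SE 0.420, adjusted p = 0.0130); only 1 of 2 LF_LF arrays was above background. Cyp7b1, an oxysterol and steroid hydroxylase, rose by 2.60 in LF_HF minus LF_LF (SE 0.512, adjusted p = 0.0497). The male-biased genes with the smallest p in BD_HF minus LF_HF were Selenbp2, a selenium-binding protein, at −0.75, and the fatty acid hydroxylase Cyp4a12a, at −0.89 (adjusted p = 0.786 each).

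Of 23 female-biased genes, listed in the same way, 21 had a probe and 17 were measured above the filter. In LF_HF minus LF_LF 0 rose and 2 fell (median −1.36), in VAD_VAD minus LF_LF 0 rose and 1 fell (median 0.44), and in BD_HF minus LF_LF 1 rose and 0 fell (median 0.28). Of all genes, 1.87%, 0.478% and 1.05% fell in these comparisons, and 0.617%, 0.0922% and 0.455% rose. The high fat groups thus had medians of opposite sign. In BD_HF minus LF_HF, where none passed, the median was 0.89 with 15 of 17 positive. All genes had a median of 0.17 there, and 61.7% were positive. Ntrk2, the receptor for brain-derived neurotrophic factor, read −0.10 and −0.06 in BD_HF livers, −1.35 and −2.98 in LF_HF livers, −3.72 and −2.02 in VAD_VAD, and 2.26 and 2.34 in LF_LF. It fell 22.0-fold in LF_HF minus LF_LF (difference −4.46, SE 0.674, adjusted p = 0.0250) and 36.1-fold in VAD_VAD minus LF_LF (−5.17, SE 0.674, adjusted p = 0.0324), where the call ended with slide as a block (adjusted p = 0.0559). Cyp4a14, a fatty acid hydroxylase that is also a target of PPARα, was at 1.16 and 2.81 in LF_HF and 7.16 and 6.89 in LF_LF, a fall of 32.9-fold (difference −5.04, SE 0.733, adjusted p = 0.0224). It read 4.56 and 5.71 in BD_HF and 9.27 and 7.63 in VAD_VAD, and neither passed against LF_LF. Hamp2, a hepcidin gene, was at 5 and 6.15 in BD_HF and 1.89 and 2.78 in LF_LF, a rise of 9.45-fold (difference 3.24, SE 0.518, adjusted p = 0.0344). In VAD_VAD it was about as high, at 5.56 and 5.09, but VAD_VAD minus LF_LF did not pass (difference 2.99, SE 0.518, adjusted p = 0.0643). In BD_HF minus LF_HF, Hamp2 differed by 2.72 and Cyp4a14 by 3.15 (adjusted p = 0.786 each). With LF_HF replicate 1 left out, 6 of the 17 were lower in LF_HF minus LF_LF, 2 higher and 1 lower in VAD_VAD minus LF_LF, and 1 higher and 4 lower in BD_HF minus LF_LF. In that fit 8.7%, 3.94% and 6.28% of all genes were called lower in these comparisons, and 1.35% and 2.81% higher in the last 2.

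**Figure D4:**
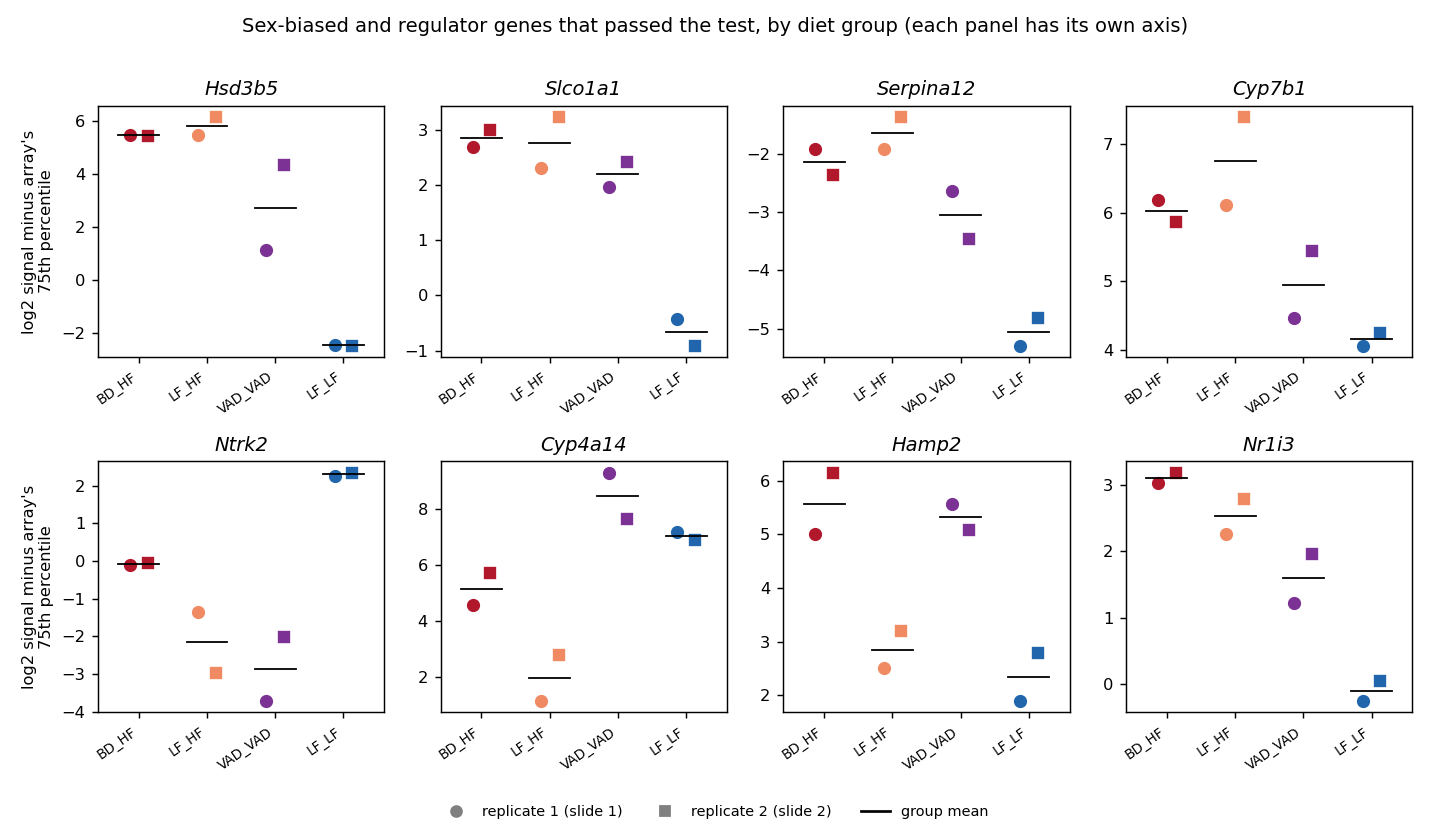
Level of 8 genes around the axis on each array (log2 signal minus the array's 75th percentile, vertical axis; a separate range in each panel): the male-biased Hsd3b5, Slco1a1, Serpina12 and Cyp7b1, the female-biased Ntrk2, Cyp4a14 and Hamp2, and the receptor gene Nr1i3. Circles are replicate 1, squares replicate 2, and bars are group means; the 4 male-biased genes and Nr1i3 are lowest in LF_LF, and Ntrk2 is highest there.

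Genes whose log2 levels ran most like those of a member over the 8 arrays were sought among 11661 other genes above background on all arrays (11662 for Cux2), as a description. Susd4 ran most like Cyp2c54, a cytochrome P450, with r = 0.991, and Krtap5-1, with r = 0.989. For Ghr the closest were Ugt2a1, a glucuronosyltransferase, and Macrod1, with r = 0.989 and 0.985, and for Igfals Cyp2j13 and Tk1, with r = 0.976 and 0.974. Bcl6 was closest to Mtfp1, a mitochondrial fission protein, and C2cd2, with r = 0.992 and 0.987. Stat5b ran most like Rap1a (r = 0.982) and Emc1 (r = 0.976), Igf1 like Atrn (r = 0.979) and Dmac1 (r = 0.940), and Cish like Ift80 (r = 0.948) and Ints7 (r = 0.943). Cux2 ran most like Kcnj16 (r = 0.966) and Tmem181a (r = 0.961), but it was well above background on only 3 of the 8 arrays. Its correlations are therefore mostly of signals near background. E2f8, a repressor of the cell cycle, was among the 2 closest genes of both Socs2 (r = 0.919, after Iba57 with 0.920) and Onecut1 (r = 0.931, after Slc25a30 with 0.953). All arrays of a group share a diet, and each value is among the best of all genes searched. Without LF_HF replicate 1 the ranks of the named genes ran from 1 (Mtfp1 for Bcl6) to 27 (Dmac1 for Igf1).

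The liver label was checked against markers, with a list's sum being the linear signal of its genes relative to the array's 75th percentile. Of 8 hepatocyte markers 7 were measured, all above background in every group, with sums of 2590 to 2980 in BD_HF, 1460 to 3160 in LF_HF, 2400 to 3370 in VAD_VAD and 1980 to 2080 in LF_LF. Cholangiocyte markers (5 of 5) summed to 5.36 to 8.37 in BD_HF, 5.06 to 5.76 in LF_HF, 5.86 to 6.31 in VAD_VAD and 14.4 to 20.9 in LF_LF. Spp1 was the brightest of the 5, at 3.52 and 4.15 (log2) in LF_LF, and weighs most in these sums. By gene, 4 of 5 differences were negative in LF_HF minus LF_LF, and 5 of 5 in VAD_VAD and in BD_HF minus LF_LF. Neutrophil markers (5 of 5) summed to 19.6 to 25.4 in VAD_VAD and to between 1.73 and 6.23 in the other groups. S100a9 was the brightest of them in VAD_VAD, at a mean of 4.19 (log2), and weighs most there. All 5 differences were positive in VAD_VAD minus LF_LF, and none was called (lowest adjusted p = 0.0504). Col1a1, a fibroblast collagen, fell in BD_HF, LF_HF and VAD_VAD relative to LF_LF, with log2 differences of −4.01, −4.67 and −3.81 (adjusted p = 0.00871, 0.00478 and 0.0170), and Pdgfrb fell as well, with −2.23, −2.52 and −2.39 (adjusted p = 0.0283, 0.0165 and 0.0403, the last 0.0588 with slide as a block), while the whole list of 7 stellate cell and fibroblast markers summed to 156 to 211, 111 to 128, 150 to 224 and 197 to 235 in BD_HF, LF_HF, VAD_VAD and LF_LF. Sums of macrophage markers (7 of 7) were 61.2 to 65.1, 41.6 to 52.4, 49.6 to 76.8 and 67.2 to 69.6 in the same order, and of endothelial markers (6 of 6) 44.9 to 56.9, 12.8 to 24.0, 41.8 to 54.4 and 29.6 to 30.2. Erythroid markers (3 of 5) summed to 160 to 180, 60.9 to 88.6, 182 to 330 and 79.9 to 83.2. Hba-a1 was the brightest of the 3 and weighs most in these sums. Hba-a1, Slc4a1 and Alas2 differed by 1.92, 1.85 and −0.33 in VAD_VAD minus LF_LF. In BD_HF minus LF_HF they differed by 1.61, −0.15 and −0.04, and in BD_HF minus LF_LF all 3 differences were positive. None of the 3 was called in any comparison. Single markers also passed. Spp1 and Cd68 fell in LF_HF minus LF_LF (log2 differences −2.02 and −1.96, adjusted p = 0.0411 and 0.0439). The 7 macrophage markers, which include Cd68, were split in LF_HF minus LF_LF, with 3 differences positive and 4 negative. Krt19 was called lower there as well, at −2.73, but LF_HF replicate 1 gave no value. That call rests on 1 LF_HF array, with the spread taken from the other groups. Cyp2e1 and Timd4 rose by 2.59 and 1.93 in BD_HF minus LF_LF (adjusted p = 0.0414 and 0.0485). Their lists were split as well, with 5 hepatocyte markers positive and 2 negative, and 4 macrophage markers positive and 3 negative. With slide as a block Krt19, Spp1 and Cyp2e1 no longer passed (adjusted p = 0.0553 for Spp1 and 0.0549 for Cyp2e1). The part of these shifts in the differences above was not tested.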

How the data were processed

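Cy3-labelled liver RNA was hybridised to single-colour Agilent arrays, 1 per sample. Signals were extracted by Feature Extraction 10.7.3.1, according to the headers. The deposited array files hold, per the file headers, a linear processed intensity (detrended, background-subtracted, with a surrogate near background) and the raw intensity of spot and local background. The processed intensity was also in the series table (largest relative difference 0.497%). Limma is named by the submitters' processing notes, with no version; no scaling between arrays is recorded. Here each deposited intensity was turned into a log2 value, minus its array's 75th percentile over 43379 gene probe spots. Flagged outlier spots were left out, spots of a probe were averaged, and 0 spots were saturated. The brightest kept probe represented a gene; 16248 of 17354 genes had a value on every array, and a missing value was dropped from the fit. Group means were fitted with lmFit and eBayes of limma 3.58.1 (R 4.3.3), with 4 residual degrees of freedom and 3.42 from the prior. A group with 0 arrays above background was set to each array's lowest signal well above background to give a bound.

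The fit was tested on simulated data. A difference that did not pass is not shown to be absent. An exact permutation test of 2 against 2 arrays cannot go below p = 0.333 (two-sided). Slide 1 held every replicate 1 and slide 2 every replicate 2, per the file headers; replicate differences correlated between groups at 0.0994 to 0.304 over genes. Alternatives were normexp (offset 50) on the raw intensities, quantile scaling, both together, stricter and no probe filters, the mean of a gene's probes, the series table, trend and robust variances, array weights, the slide block, each array left out, and only the groups compared.

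The members and lists were chosen with earlier results of these data known. Named were all 10 members with every probe; per list of axis genes and comparison the called genes, up to 6 per direction, or else the 2 with the smallest p; and per member the 2 genes with the highest Pearson correlation. Probe names came from the array files, updated through a GRCm38.p6 gene table for 33617 probes; probe positions are in mm9, per the file headers. List genes without a probe here were not analysed.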

Additional observations from a re-analysis of the deposited data

How the results depend on the processing

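Over 753 alternative values of the 10 genes in the 4 comparisons, 659 kept direction and side of the threshold, 41 newly passed, 14 no longer passed (all of Susd4) and 39 changed sign; each reversal had a main difference of at most 2.27 in size and no main call. Main counts of called members were 0 in BD_HF minus LF_HF and 1 (Susd4) in each comparison with LF_LF and in the F test. In the order LF_HF minus LF_LF, VAD_VAD minus LF_LF, BD_HF minus LF_LF and F test, they were 3, 2, 3 and 2 with normexp, and 3, 2, 3 and 3 with normexp and quantile scaling. Quantile scaling gave 2 in LF_HF and VAD_VAD minus LF_LF and 2 in the F test. Without a probe filter limma called 0 in VAD_VAD minus LF_LF (2 at unadjusted p under 0.05), 0 in BD_HF minus LF_LF (4) and 0 in the F test (2). Trend and robust variances gave 2 in BD_HF minus LF_LF and 2 in the F test, and array weights 3 in VAD_VAD minus LF_LF, 5 in BD_HF minus LF_LF and 2 in the F test. With only the groups compared, the counts were 0 in LF_HF minus LF_LF (2 unadjusted), 2 in VAD_VAD minus LF_LF and 4 in BD_HF minus LF_LF. Calls over all genes moved over these alternatives too. In the order above they reached 2672, 1172, 2799 and 880, where the main fit called 432, 99, 262 and 150. The member counts are not set beside a share for each setting, and are no result about the members on their own. With 1 array left out they ran from 0 to 2 in BD_HF minus LF_HF, 0 to 4 in LF_HF minus LF_LF, 0 to 3 in VAD_VAD minus LF_LF, 0 to 5 in BD_HF minus LF_LF and 0 to 6 in the F test. The most calls in each comparison came with 1 of the LF_HF arrays left out.

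Reversed differences with normexp were −0.08 for Igf1 (LF_HF minus LF_LF) and −0.06 for Stat5b (VAD_VAD minus LF_LF). With quantile scaling they were −0.02 for Cish, −0.06 for Igf1, −0.01 for Igfals and 1.82 for Cux2 (BD_HF minus LF_HF), 0.01 for Stat5b, −0.06 for Igf1 and 0 for Cux2 (LF_HF minus LF_LF), −0.13 for Stat5b (VAD_VAD minus LF_LF) and −0.12 for Igf1 (BD_HF minus LF_LF). With both they were −0.06 for Igf1 and 0.18 for Cux2 (BD_HF minus LF_HF), 0.02 for Stat5b (LF_HF minus LF_LF), −0.13 for Stat5b (VAD_VAD minus LF_LF) and −0.06 for Igf1 (BD_HF minus LF_LF). With the mean of a gene's probes they were −0.26 and 0.85 for Stat5b (BD_HF minus LF_HF, LF_HF minus LF_LF), −0.29 for Igf1 (LF_HF minus LF_LF) and −0.15 for Ghr (VAD_VAD minus LF_LF). With 1 array left out, BD_HF minus LF_HF ran from −0.12 to 0.70 for Ghr, −1.90 to 0.48 for Socs2, −0.76 to 1.12 for Cish, −0.37 to 0.61 for Igf1, −0.29 to 0.76 for Igfals, −2.08 to 1.90 for Cux2 and −0.66 to 0.30 for Susd4. LF_HF minus LF_LF ran from −0.43 to 0.19 for Stat5b, −0.81 to 1.57 for Socs2, −0.75 to 1.13 for Cish, −0.17 to 2.38 for Bcl6, −0.47 to 0.50 for Igf1 and −0.53 to 1.37 for Onecut1, and VAD_VAD minus LF_LF from −0.10 to 0.11 for Stat5b, −1.17 to 0.33 for Cish and −0.09 to 0.50 for Igfals. The cause was not tested.

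The slide and replicate block changed no member's call; the same-numbered arrays share a slide and no other link is given. It moved the calls over all genes in VAD_VAD minus LF_LF to 57, against 99 without it. Calls over all genes ran from 0 to 4 in BD_HF minus LF_HF (main 1), 0 to 2672 in LF_HF minus LF_LF (432), 0 to 1172 in VAD_VAD minus LF_LF (99), 0 to 2799 in BD_HF minus LF_LF (262) and 0 to 880 in the F test (150). With 1 array left out the same counts ran from 0 to 3102, 4265, 918, 1577 and 4043, where at least 329, 1392, 780, 1031 and 1056 had an unadjusted p under 0.05. Quantile scaling moved the median of all genes in LF_HF minus LF_LF to −0.22, against −0.02. The number of arrays, 2 per group, and the wide spread of the LF_HF pair both limit precision.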
